A study of Mus musculus with 8 samples.

Results

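NADPH oxidases are membrane enzymes that pass electrons from NADPH to oxygen and so make superoxide or hydrogen peroxide. The subunits described here are 8 genes of the 55679 in the expression table, and they were chosen by name as parts of the enzyme family. They are Cybb and Cyba, which form the membrane core of the phagocyte oxidase, Ncf1 and Ncf4, which belong to its cytosolic part, Rac1 and Rac2, the small GTPases that switch it on, and Nox1 and Nox4, the catalytic subunits of related oxidases. These subunits and the gene lists were picked with earlier results of these data known, so their counts beside shares over all genes are descriptive. RNA was measured in left ventricles of WT mice (male C57BL/6J per the study's methods; no age is given) infused for 7 days through osmotic mini-pumps under the skin. The control group received saline (n = 4) and the ANG II group received angiotensin II at 1500 ng/kg/min (n = 4), a peptide hormone that raises blood pressure. Blood was rinsed out of the hearts with saline at collection, and mRNA was enriched on oligo(dT) beads. The labels do not say in so many words that each library came from another mouse, so the p-values measure the spread between these libraries. The study's methods describe more replicates per group than the 4 analysed here.

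In the phagocyte oxidase, the heme-binding protein gp91phox (Cybb, also NOX2) sits in the membrane with p22phox (Cyba) and is silent until cytosolic subunits, p47phox (Ncf1) and p40phox (Ncf4) among them, and a Rac GTPase join it. NOX4 needs p22phox but no cytosolic subunit, is active as soon as it is made, and releases mainly hydrogen peroxide. Angiotensin II is a well-known activator of these oxidases in vessels and heart, where macrophages, fibroblasts, endothelial cells and cardiomyocytes can each hold some of the subunits.

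Values are FPKM, that is fragment counts divided by transcript length and by library size. The 8 libraries held 14455654 to 16564828 fragments, as read from the steps between low values. Differences were tested by limma on log2(FPKM + 1) over the 19364 genes that averaged 0.1 FPKM or more. To be called, a gene needed an adjusted p-value below 0.05 and a log2 fold change beyond 0.5 in either direction. Cardiomyocyte markers summed to between 41042 and 41986 FPKM in the control libraries and between 30056 and 32983 FPKM in the ANG II libraries, values that go with the tissue label, although the extraction text of the labels names another cell source. Mitochondrially encoded genes took 26.3 to 26.95% of the fragments in control and 19.2 to 21.8% in ANG II. Across all tested genes the median log2 fold change was 0.15 as deposited and 0.0025 after median-of-ratios scaling. Changes relative to that median are given below where a direction rests on them.

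Of the 8 subunits, 7 had a mean above the filter and were tested. In ANG II 6 of them were higher past both thresholds (Cybb, Cyba, Ncf1, Ncf4, Nox4 and Rac2) and 0 lower, where 14.0% of all tested genes were called higher and 1.41% lower. In all 7 tested subunits the lowest ANG II library lay above the highest control library, as it did in 28.7% of the tested genes. The median log2 fold change of the 7 was 1.39, against 0.15 over all genes tested. By limma's adjusted p alone all 7 were higher, where 28.4% of all tested genes were. Above an absolute log2 fold change of 1 there were 5 of the 7 (Cybb, Ncf1, Ncf4, Nox4 and Rac2), where 3.96% of all tested genes were called higher. After median-of-ratios scaling the same 6 were called higher, where 8.65% of all tested genes were. Each of the 7 had p = 0.0286 in a two-sided exact permutation test on FPKM (70 allocations of the libraries), the smallest p that this design allows.

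**Figure D1:**
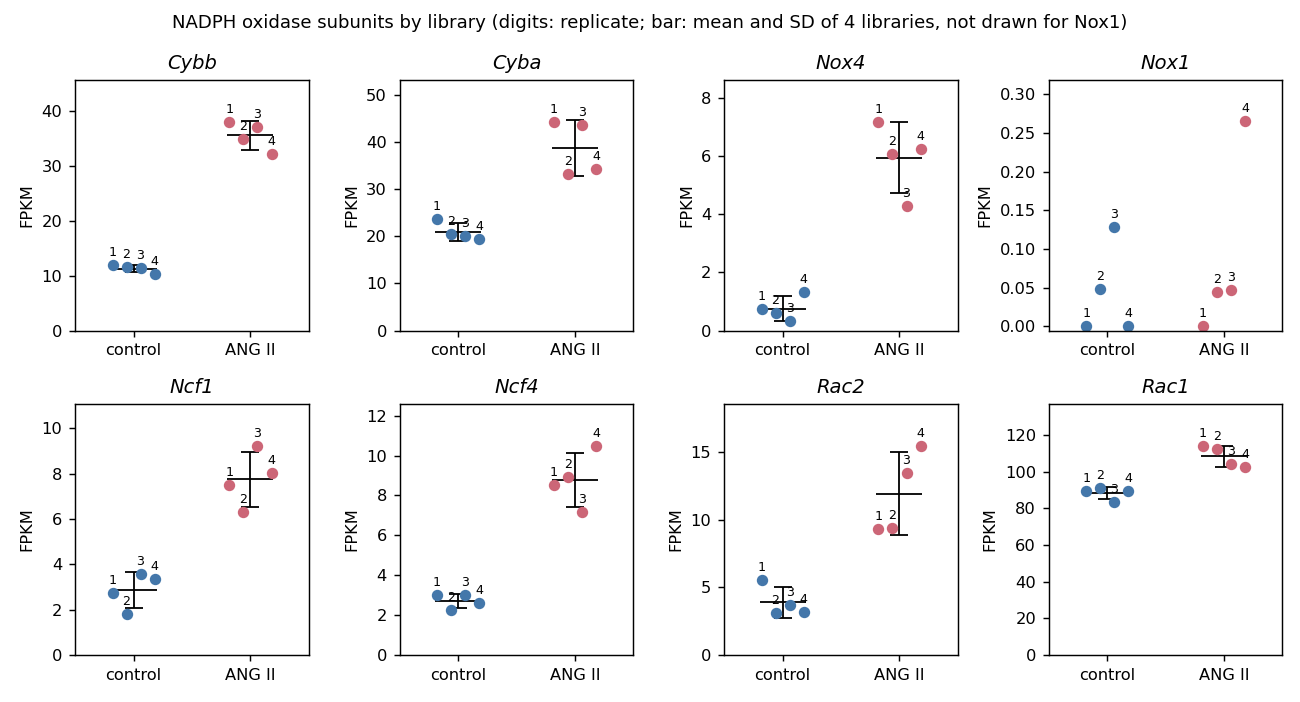
FPKM (vertical axis, linear, own scale per panel) of the 8 subunits in each of the 4 control (blue) and 4 ANG II (red) libraries, with digits for the replicate and bars for mean and SD where drawn. Every ANG II point lies above every control point except for Nox1, whose control libraries lie between 0 and 0.128 FPKM and whose ANG II libraries lie between 0 and 0.265 FPKM.

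Upstream sequence was at hand in RefSeq (GRCm38.p6) for 5 of the 8 subunits, namely Cybb, Cyba, Ncf1, Nox1 and Nox4. The 250 bases before the RefSeq start are shown for the membrane core and for Nox4. These 3 genes were all called higher, by unlike amounts, and their upstream sequences differ in composition. A link between sequence and change was not tested. Capitals mark matches to any of 4 words searched on both strands, GAGGAA (the core of many PU.1 sites), TGANTCA (the AP-1 word), CCAAT and TATAAA. The windows are chrX:9469325-9469574 on the minus strand for Cybb, chr8:122432941-122433190 on the minus strand for Cyba and chr7:87246399-87246648 on the plus strand for Nox4.
Cybb: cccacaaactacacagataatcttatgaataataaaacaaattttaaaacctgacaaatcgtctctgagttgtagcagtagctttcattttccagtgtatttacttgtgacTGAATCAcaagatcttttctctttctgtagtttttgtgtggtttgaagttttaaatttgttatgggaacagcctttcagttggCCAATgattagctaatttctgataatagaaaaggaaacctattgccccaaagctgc
Cyba: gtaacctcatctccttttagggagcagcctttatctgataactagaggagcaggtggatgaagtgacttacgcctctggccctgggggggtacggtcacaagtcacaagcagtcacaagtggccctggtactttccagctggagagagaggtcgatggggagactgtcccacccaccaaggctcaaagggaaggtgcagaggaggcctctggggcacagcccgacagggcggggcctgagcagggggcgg
Nox4: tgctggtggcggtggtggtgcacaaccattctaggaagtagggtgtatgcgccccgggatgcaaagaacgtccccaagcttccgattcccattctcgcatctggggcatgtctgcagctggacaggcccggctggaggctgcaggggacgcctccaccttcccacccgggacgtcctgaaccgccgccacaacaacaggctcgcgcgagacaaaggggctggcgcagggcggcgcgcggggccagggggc
The Cybb window was 34% G or C with 1 CpG, the Cyba window 60% with 6 CpG and the Nox4 window 67.2% with 20 CpG, and the median of all 32851 RefSeq windows was 52.4% with 6 CpG. In G and C content Cybb stood above 4% of all windows, Cyba above 72% and Nox4 above 86%. The Cybb window held TGAATCA at bases -139 to -133 and CCAAT at bases -56 to -52, counted back from -1 just before the start, and these 2 matches do not overlap. TGAATCA has A at the open base and so is not TGACTCA on either strand. No word was found in the Cyba and Nox4 windows. TGANTCA was present in 6.75% of all windows, CCAAT in 33.8%, GAGGAA in 23.3% and TATAAA in 12.4%. No window of the 3 covered an exon in GENCODE M21, in which 1 of 5 Cybb transcripts and 1 of 8 Nox4 transcripts start further upstream.

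The membrane core of the phagocyte oxidase rose, and the catalytic subunit rose further than its partner. Cybb (ENSMUSG00000015340, chromosome X, 9435252 to 9487771, minus strand, GRCm38) was at 11.9, 11.5, 11.5 and 10.3 FPKM in control libraries 1 to 4 and at 38.1, 34.8, 37.2 and 32.2 FPKM in ANG II libraries 1 to 4. The groups were far apart, with a gap wider than the range of either group. The means were 11.3 ± 0.699 and 35.6 ± 2.62 FPKM (SD, n = 4 each), a ratio of 3.15. Its log2 fold change was 1.57 (SE 0.0706, 95% interval 1.41 to 1.73, limma adjusted p = 1.90e-06), the 219th highest among the 19364 genes. The values rested on 234 to 282 fragments per control library and 765 to 858 per ANG II library.

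Cyba (ENSMUSG00000006519, chromosome 8, 122424776 to 122432930, minus strand), which stabilises several NOX proteins in the membrane, was at 23.6, 20.5, 20.0 and 19.5 FPKM in control and at 44.4, 33.2, 43.6 and 34.3 FPKM in ANG II. The ANG II libraries fell into a higher pair, 1 and 3, and a lower pair, 2 and 4, and all 4 lay above the control libraries. The means were 20.9 ± 1.86 and 38.9 ± 5.94 FPKM (SD, n = 4 each), a ratio of 1.86. Its log2 fold change was 0.86 (SE 0.106, 95% interval 0.62 to 1.09, limma adjusted p = 2.74e-04). The macrophage markers summed to 836 and 950 FPKM in ANG II libraries 1 and 3 and to 681 and 738 FPKM in libraries 2 and 4. The sums of the fibroblast, endothelial, smooth muscle and atrial lists were likewise higher in libraries 1 and 3 than in 2 and 4, and the part of these cells in the spread of Cyba was not tested.

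The ratio of Cybb to Cyba within a library does not depend on how libraries are scaled. It was 0.504, 0.562, 0.573 and 0.528 in control and 0.858, 1.05, 0.853 and 0.939 in ANG II, with no overlap. The difference was 0.77 on the log2 scale, a 1.70-fold rise (exact two-sided permutation test, p = 0.0286, and 0.0786 adjusted over the 11 ratios examined). Of the 11 ratios, 4 had groups that did not overlap and reached the smallest p, and 0 passed an adjusted threshold of 0.05.

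Both cytosolic subunits rose. Ncf1 (ENSMUSG00000015950, chromosome 5, 134220053 to 134229625, minus strand) encodes p47phox, the organizer that carries the activation signal to the membrane core. It was at 2.75, 1.82, 3.59 and 3.36 FPKM in control and at 7.49, 6.29, 9.23 and 8.01 FPKM in ANG II. The lowest ANG II library stood well above the highest control library. Means of 2.88 ± 0.790 and 7.76 ± 1.22 FPKM (SD, n = 4 each) gave a ratio of 2.70 and a log2 difference of 1.19 with SE 0.165 (limma adjusted p = 5.11e-04). Of its exon length, 11.1% lies under Gtf2ird2 on the opposite strand, a gene that measured 5.02 ± 0.752 and 5.55 ± 0.680 FPKM (SD, n = 4 each), and the use of strand in counting is not given.

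Ncf4 (ENSMUSG00000071715, chromosome 15, 78244801 to 78262580, plus strand) encodes p40phox, which binds a lipid of phagosome membranes. It was at 3.00, 2.23, 2.98 and 2.60 FPKM in control and at 8.50, 8.92, 7.17 and 10.5 FPKM in ANG II. All ANG II libraries were above all control libraries by a wide margin. Means of 2.70 ± 0.366 and 8.77 ± 1.36 FPKM (SD, n = 4 each) gave a ratio of 3.24 and a log2 difference of 1.39 with SE 0.122 (limma adjusted p = 4.27e-05).

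Set against Cyba within a library, Ncf4 was at 0.109 to 0.149 in control and at 0.165 to 0.306 in ANG II, without overlap (log2 difference 0.81, exact permutation p = 0.0286, adjusted 0.0786). The ratio of Ncf1 to Cyba overlapped between groups (log2 difference 0.58, exact permutation p = 0.0857, adjusted 0.135). Between the cytosolic subunits themselves, the ratio of Ncf1 to Ncf4 ran from 0.815 to 1.29 in control and from 0.706 to 1.29 in ANG II, and its log2 difference of -0.23 was within the spread (exact permutation p = 0.343, adjusted 0.419).

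The Rac GTPases differed in size of change. Rac2 (ENSMUSG00000033220, chromosome 15, 78559167 to 78572783, minus strand), the form of blood cells, was at 5.53, 3.12, 3.72 and 3.19 FPKM in control and at 9.34, 9.38, 13.5 and 15.5 FPKM in ANG II. Control library 1 stood above the other controls, and ANG II libraries 3 and 4 stood above 1 and 2. Means of 3.89 ± 1.13 and 11.9 ± 3.07 FPKM (SD, n = 4 each) gave a ratio of 3.06 and a log2 difference of 1.40 with SE 0.192 (limma adjusted p = 4.90e-04). T and B cell markers summed to 9.50 and 10.5 FPKM in ANG II libraries 3 and 4 against 6.67 and 5.42 FPKM in 1 and 2, and to 7.43 FPKM in control library 1 against 2.09 to 3.64 FPKM in the other controls. Control library 1 was also the highest control in red cell genes (487 FPKM against 96.8 to 162) and neutrophil markers (6.79 FPKM against 2.76 to 3.87). Macrophage markers were highest there too (378 FPKM against 302 to 319). In ANG II, red cell genes were highest in library 2 (2083 FPKM) and lowest in library 4 (581 FPKM). Neutrophil markers were highest in library 2 (22.1 FPKM), and macrophage markers were highest in library 3 (950 FPKM) and lowest in library 2 (681 FPKM). The part of these cells in the spread of Rac2 was not tested, and without control library 1 the log2 fold change of Rac2 was 1.54.

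Rac1 (ENSMUSG00000001847, chromosome 5, 143503634 to 143528036, minus strand), which nearly all cells make, was at 89.4, 90.8, 83.2 and 89.3 FPKM in control and at 114, 113, 104 and 103 FPKM in ANG II. The groups did not overlap, yet the shift was small, from 88.2 ± 3.36 to 108 ± 5.73 FPKM (SD, n = 4 each), a ratio of 1.23. Its log2 difference of 0.29 (SE 0.0522, limma adjusted p = 0.00208) was below the fold threshold, and relative to the median of all genes it was 0.15. Under median-of-ratios scaling the log2 fold change was 0.07 (limma adjusted p = 0.417) and the groups overlapped (exact permutation p = 0.257). Opposite-strand exons of Daglb cover 51.4% of the exon length of Rac1, and Daglb itself was at 3.23 ± 0.232 and 4.58 ± 0.378 FPKM (SD, n = 4 each).

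The balance between both GTPases moved toward Rac2 in every ANG II library. Within a library, Rac2 was at 0.0344 to 0.0619 of the FPKM of Rac1 in control and at 0.0819 to 0.151 in ANG II. This was a 2.50-fold rise of the ratio (log2 difference 1.32, exact permutation p = 0.0286, adjusted 0.0786).

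Nox4 had the largest fold change of the 8. The gene (ENSMUSG00000030562, chromosome 7, 87246096 to 87398710, plus strand) was at 0.738, 0.595, 0.334 and 1.34 FPKM in control and at 7.19, 6.07, 4.28 and 6.25 FPKM in ANG II. Control values spread widely, but the lowest ANG II library was still above the highest control library. Means of 0.752 ± 0.428 and 5.95 ± 1.21 FPKM (SD, n = 4 each) gave a ratio of 7.91. On the log2(FPKM + 1) scale, which understates changes of low genes, the difference was 2.00 (SE 0.190, 95% interval 1.58 to 2.43, limma adjusted p = 6.61e-05), the 98th highest of the 19364. With 0.1 FPKM added in place of 1 it was 2.94. The control libraries held 14 to 52 Nox4 fragments and the ANG II libraries 164 to 276.

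Fibroblast markers summed to 498, 546, 388 and 533 FPKM in control libraries 1 to 4 and to 1945, 1757, 1785 and 1701 FPKM in ANG II libraries 1 to 4. Control 3 was lowest in both Nox4 and this sum and ANG II 1 highest in both, but ANG II 3, with the least Nox4 of its group, had the second highest sum there, and ANG II 4 had the lowest sum with the second most Nox4. The part of fibroblasts in the spread of Nox4 was not tested. Relative to Cyba, the partner that it needs, Nox4 ran from 0.0167 to 0.0689 in control and from 0.0984 to 0.183 in ANG II, a 4.75-fold rise without overlap (exact permutation p = 0.0286, adjusted 0.0786). Relative to Cybb the groups overlapped, with 0.0291 to 0.130 in control and 0.115 to 0.194 in ANG II (log2 difference 1.48, exact permutation p = 0.0571, adjusted 0.126). Control library 4 alone reached into the ANG II range.

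Nox1, best known from the epithelium of the colon and from vascular smooth muscle, was barely present. The gene (ENSMUSG00000031257, chromosome X, 134086421 to 134221956, minus strand) had 0, 1, 3 and 0 fragments in control and 0, 1, 1 and 6 in ANG II, that is 0, 0.0484, 0.128 and 0 FPKM and 0, 0.0443, 0.0467 and 0.265 FPKM. A count of 0 allows up to 3 fragments, or 0.128 to 0.147 FPKM in these libraries, and only ANG II library 4 was above that level. The gene was below the filter, and a difference between groups was not detectable at this depth (exact permutation p = 0.714). Of its exon length, 12.1% lies under Cstf2 on the opposite strand.

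**Figure D2:**
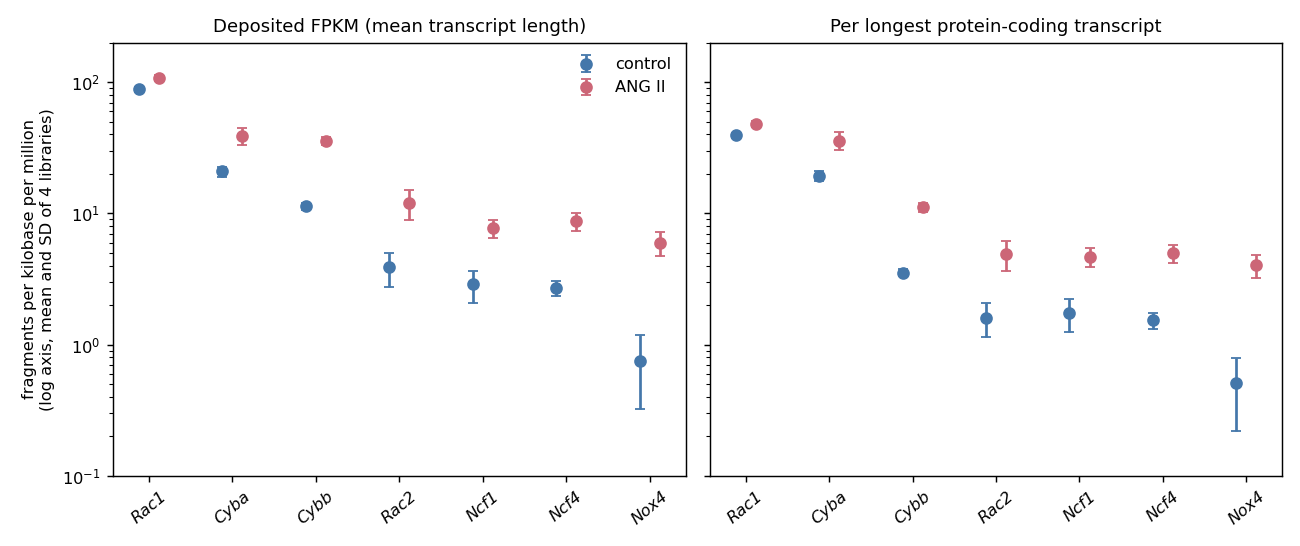
Mean and SD over 4 libraries (log axis) of 7 subunits in control (blue) and ANG II (red), as deposited FPKM on the left and per kilobase of the longest protein-coding transcript on the right. Rac1 and Cyba lead on either scale, and Cybb in ANG II is at 35.6 on the left and 11.1 on the right.

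Levels can be ordered between genes only per length, and the deposited values divide by the mean length of all annotated transcripts of a gene. On that scale the control order was Rac1, Cyba, Cybb, Rac2, Ncf1, Ncf4, Nox4 and Nox1, and the ranges of Rac2 and Ncf1, and of Ncf1 and Ncf4, overlapped. In ANG II the order was Rac1, Cyba, Cybb, Rac2, Ncf4, Ncf1, Nox4 and Nox1. There the ranges of Cyba and Cybb overlapped, and those from Rac2 down to Nox4 overlapped from each gene to the next. The mean length of Cybb transcripts is 1486 bases while the longest coding one has 4752, 3.20 times as many. Per kilobase of the longest coding transcript, Cybb stood at 3.53 ± 0.219 against 19.3 ± 1.72 for Cyba in control and at 11.1 ± 0.820 against 35.9 ± 5.49 in ANG II (SD, n = 4 each), so that on this scale their ranges were apart in both groups. Ratios of group means and fold changes of within-library ratios are the same on either scale, while fold changes of log2(FPKM + 1) are not.

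The macrophage markers, from a list of 11 genes, were called higher in 11 of 11 cases, where 14.0% of all tested genes were, with a median log2 fold change of 1.39 against 0.15 over all genes. Their sum was between 302 and 378 FPKM in the control libraries and between 681 and 950 FPKM in the ANG II libraries. The defining markers Adgre1 (10.1 to 18.6 and 34.5 to 45.0 FPKM) and Csf1r (24.0 to 27.1 and 50.8 to 66.0 FPKM) were both present in every library. Set against the geometric mean of the 11 markers in the same library, Cybb, Ncf1, Ncf4 and Rac2 overlapped between groups. The ratio of Cybb was 0.777 to 0.877 in control and 0.870 to 1.07 in ANG II (log2 difference 0.19, exact permutation p = 0.0857, adjusted 0.135). The log2 difference was 0.0050 for Ncf1 (exact permutation p = 1), 0.24 for Ncf4 (exact permutation p = 0.257) and 0.16 for Rac2 (exact permutation p = 0.486). Cyba was added to these after its values were seen, and its ratio went the other way, from 1.54, 1.54, 1.53 and 1.56 in control to 1.19, 1.02, 1.02 and 0.928 in ANG II, without overlap (log2 difference -0.57, exact permutation p = 0.0286, adjusted 0.0686 over 12 ratios). A p that misses the threshold does not show that subunits and markers moved alike. In ventricle RNA, a change in the number of cells of a type and a change in RNA per cell cannot be told apart.

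**Figure D3:**
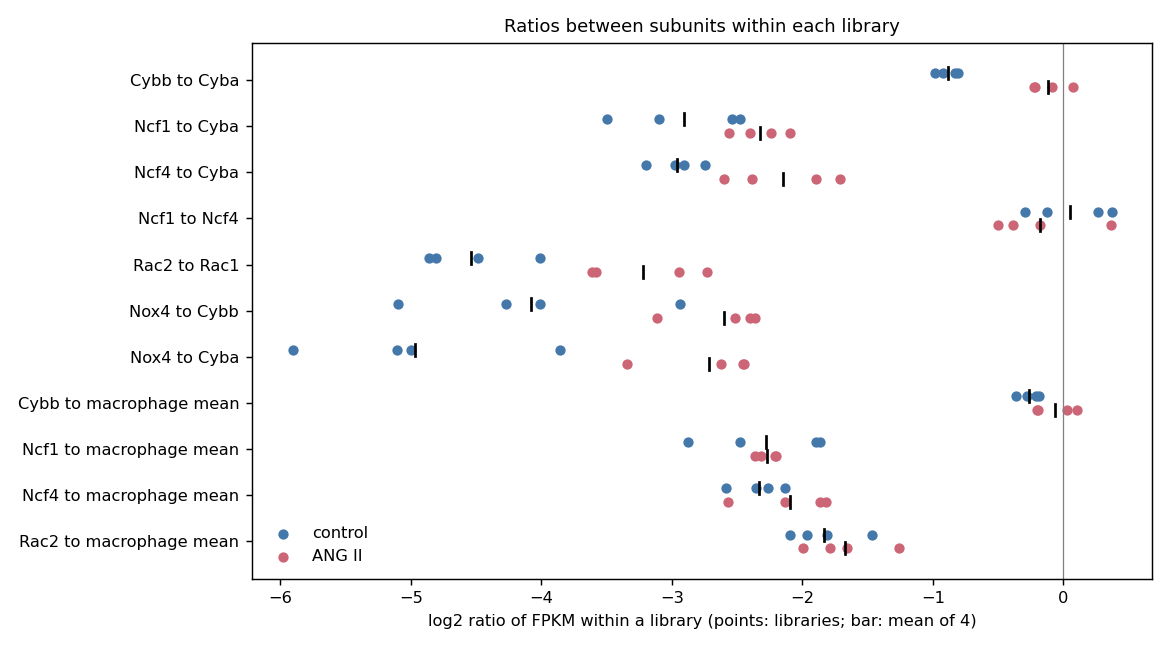
Log2 ratio of FPKM within a library (horizontal axis) for 11 pairs, with control libraries in blue, ANG II libraries in red and black bars for the mean of 4. Groups stand apart for Cybb to Cyba, Ncf4 to Cyba, Rac2 to Rac1 and Nox4 to Cyba, and overlap for the other 7 pairs, the 4 against the macrophage mean included.

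Markers of other cells are given beside these, where 14.0% of all tested genes were called higher and 1.41% lower. Of 10 neutrophil markers 5 were tested and 4 called higher, with sums of 2.76 to 6.79 and 8.72 to 22.1 FPKM, yet the defining markers were near absent, with 2 fragments of Ly6g and 1 of Mpo over all 8 libraries and Elane at 0. Of 6 fibroblast markers 6 were called higher (388 to 546 and 1701 to 1945 FPKM), of 8 T and B cell markers 1 (2.09 to 7.43 and 5.42 to 10.5 FPKM), of 6 endothelial markers 1 (350 to 375 and 395 to 453 FPKM) and of 4 smooth muscle markers 1 (95.6 to 164 and 102 to 129 FPKM, which overlap). Of 6 cardiomyocyte markers 2 were called lower. Red cell genes rose in 5 of 5 cases and their sum ran from 96.8 to 487 FPKM across controls and from 581 to 2083 FPKM across ANG II libraries, and atrial genes summed to 1.15 to 48.8 and 52.5 to 230 FPKM with 1 of 3 called higher. The part of these cells in the change of the subunits was not tested.

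Of 10 other genes of the enzyme family 7 were tested and 2 called higher, where 14.0% of all tested genes were. Cybc1, a chaperone of the gp91phox and p22phox pair, averaged 9.72 ± 0.687 FPKM in control and 16.4 ± 1.74 with ANG II (SD, n = 4 each) and rose by 0.70 in log2 (limma adjusted p = 2.67e-04). Of the 8 relatives without a call 5 were tested, Nox3 and Noxa1 were listed at 0 in all libraries, and Duoxa2 was below the filter.

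Of 19 regulators of the oxidases, all tested, 13 were called higher and 0 lower by limma (14.0% and 1.41% of all tested genes), with a median log2 fold change of 0.68 against 0.15 over all genes. Exchange factors that load Rac with GTP were among them, with log2 fold changes of 1.47 for Vav1, 1.12 for Dock2, 1.05 for Prex1, 0.73 for Vav3 and 0.68 for Tiam1, while Vav2 (0.44) and Arhgef7 (0.30) were not called. Vav1 and Dock2 are known mostly from blood cells. Among kinases, which include those that phosphorylate p47phox, the values were 1.23 for Pak1, 1.11 for Prkcb, 0.99 for Prkcd and 0.14 for Prkca, which was not called (limma adjusted p = 0.328). Arhgdib and Arhgdia, which hold Rac and related GTPases in the cytosol, rose by 0.97 and 0.64, and Rap1b by 0.57. Its close relative Rap1a, the GTPase copurified with the oxidase, had a log2 fold change of 0.19 with overlapping groups and no call. Sh3pxd2b, a scaffold related to p47phox, rose by 1.23, while Sh3pxd2a (0.39) was not called, and P4hb, a disulfide isomerase reported as an oxidase partner, by 0.60. The 6 without a call ranged from -0.11 for Poldip2, described as a NOX4 partner, to 0.44 for Vav2. Under median-of-ratios scaling 10 of the 15 calls among relatives and regulators were kept (8.65% of all tested genes were called higher there), and Arhgdia, Cybc1, P4hb, Rap1b and Tiam1 were lost.

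**Figure D4:**
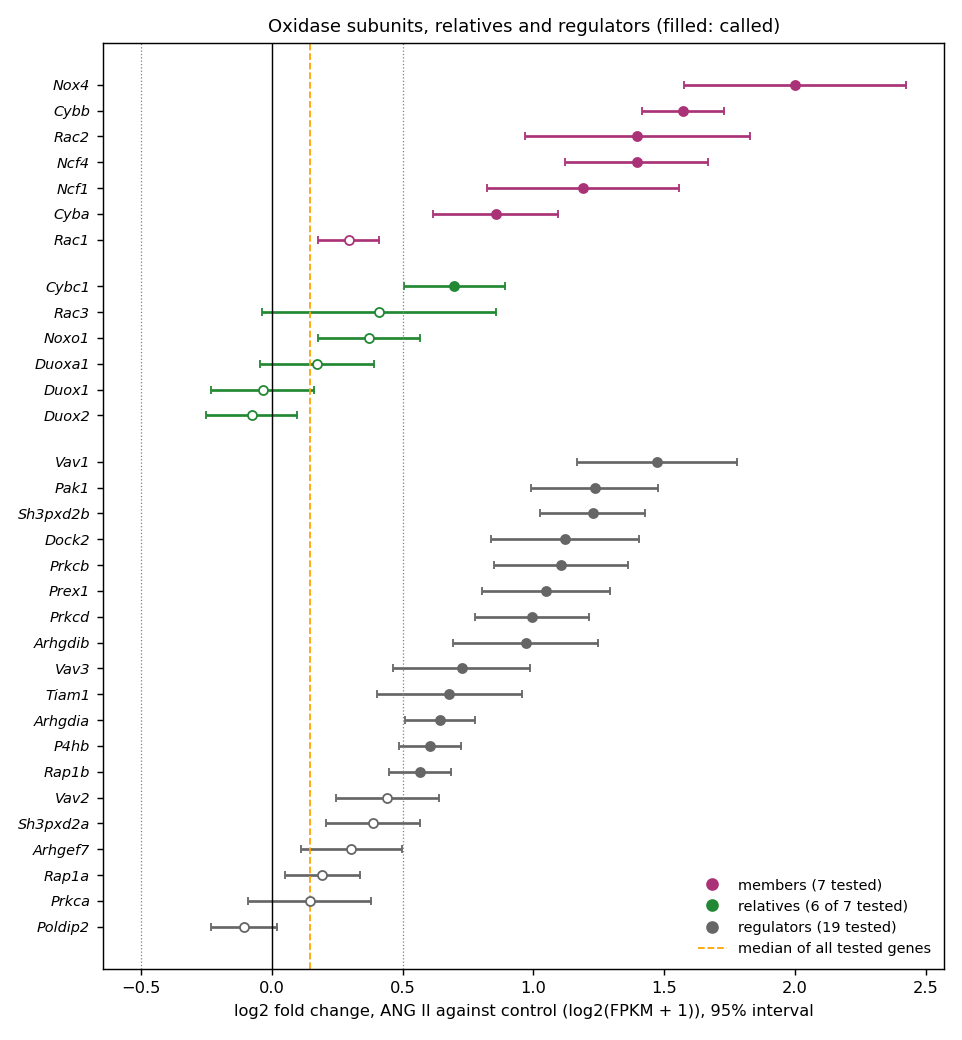
Log2 fold change of ANG II against control with its 95% interval (horizontal axis) for tested subunits, relatives (6 of the 7 tested) and regulators, filled where called, with dotted lines at the fold threshold and a dashed line at the median of all genes, 0.15. Nox4 is highest at 2.00, Rac1 is the only open symbol among the 7 subunits, and no filled symbol lies below 0.

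The genes whose profile over the 8 libraries was nearest to 3 of the subunits were sought among 11856 named genes averaging 1 FPKM or more, by the Euclidean distance of centred log2(FPKM + 1) values. Nearest to Cybb was Igf1, a growth factor, at a distance of 0.184, with control and ANG II means of 10.3 ± 0.578 and 34.5 ± 1.97 FPKM (SD, n = 4 each), followed by Tmem176a at 0.232 and Ncapg2 at 0.267. For Cyba the nearest were Tmsb4x (0.230), Pid1 (0.232) and Elovl1 (0.233). The nearest to Nox4 were Serpinf1 at 0.361, with 34.2 ± 7.77 and 138 ± 19.9 FPKM (SD, n = 4 each), Nupr1 at 0.438 and Bgn, a proteoglycan of the matrix, at 0.452. None of these 9 genes was a subunit.

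The calls of the subunits did not depend on any single library or on the scaling. Over 19 alternatives the log2 fold change ran from 1.35 to 1.65 for Cybb, from 0.63 to 0.92 for Cyba, from 0.88 to 1.44 for Ncf1, from 1.08 to 1.68 for Ncf4, from 1.11 to 1.62 for Rac2 and from 1.74 to 3.12 for Nox4. Rac1 ran from 0.07 to 0.32 and was called only where the fold threshold was dropped.

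**Figure D5:**
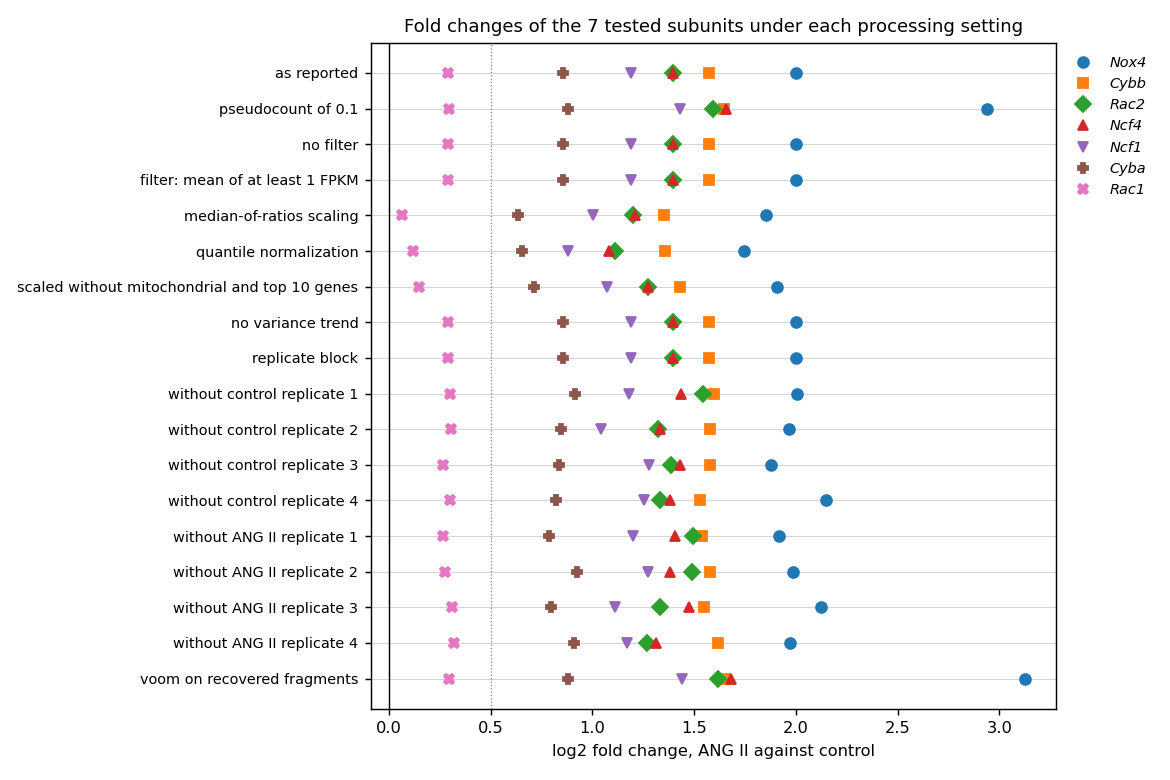
Log2 fold change (horizontal axis) of the 7 tested subunits as reported and under each alternative that changes the fit, 1 row per setting. Nox4 is highest in every row and Rac1 lowest, with Rac1 closest to 0, at 0.07, under median-of-ratios scaling.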

How the data were processed

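The 8 libraries were grouped by their treatment labels. The authors deposited 1 table of FPKM values, with 1 column per library. The submitters' processing notes name HISAT, Bowtie2 and RSEM without versions, and the genome build, annotation release and use of strand are not given in the sources used here. Scaled by mean transcript length from GENCODE M21 (GRCm38), low FPKM values were whole fragments in 98.1 to 98.5% of cases (tolerance 0.05, values under 60 fragments). The floor of a count of 0 covers counting error only, while limma's intervals rest on the spread between libraries.

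Genes averaging 0.1 FPKM or more were fitted on log2(FPKM + 1) by limma 3.58.1 under R 4.3.3 (eBayes with trend after lmFit), without a replicate block. P-values were two-sided and Benjamini-Hochberg adjusted over the 19364 genes. The study names both thresholds but not the base of the logarithm, the pseudocount or a filter, which were choices made here. Single values and log2 ratios were compared by exact permutation tests (scipy 1.17.1), ratios adjusted over 11. Subunits, gene lists and ratios were chosen with earlier results of these data known. All 8 subunits, the called relatives and regulators and the 3 nearest profiles of Cybb, Cyba and Nox4 are named, with other relatives named where a small count needed it, and 1 called relative is counted but not reported singly here. Rows without a gene name held at most 0.118% of the summed FPKM of a library.

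Alternatives changed the pseudocount, the filter, the scaling, the variance trend, the block, the thresholds or the libraries included. Levels per longest coding transcript, voom on recovered fragments and the ratio of Cyba to the macrophage mean were added after seeing the data. The smallest exact p-value is 0.0286 with 8 libraries and 0.0571 with 7.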

Additional observations from a re-analysis of the deposited data

How the results depend on the processing

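Over the 19 alternatives, 6 subunits were called in each setting except 2, 7 by adjusted p alone (Rac1 added) and 5 above a log2 fold change of 1 (Cyba lost). Leaving out each library in turn kept 6 calls and 7 subunits without overlap. Among relatives and regulators, the 15 calls became 9 under quantile normalization, 10 under median-of-ratios scaling and 6 above a log2 fold change of 1, and rose to 20 by adjusted p alone and to 16 with 0.1 FPKM added and with voom. The log2 difference of the ratio of Ncf1 to the macrophage mean, 0.0050 as reported, was -0.022 with 0.1 FPKM added and ran from -0.19 to 0.14 when each library was left out, changing sign without control 1, control 2, ANG II 3 or ANG II 4. With each library left out in turn, the log2 difference against the macrophage mean ran from 0.14 to 0.39 for Ncf4 and from 0.021 to 0.28 for Rac2. That of Ncf1 ran from -0.41 to -0.12 against Ncf4 and from 0.38 to 0.72 against Cyba. The exact test could not pass 0.05 with 7 libraries. Replicate numbers did not pair the libraries (correlations of -0.016, 0.062, -0.032 and -0.0093 for numbers 1 to 4, with 1 of 4 libraries closest to its own number), and a fit with the replicate number as a block called 6 subunits and 15 relatives and regulators. Over all genes, 2981 calls (2708 higher, 273 lower) became 2478 (1672 higher, 806 lower) under median-of-ratios scaling, 2399 (1413 higher, 986 lower) under quantile normalization and 2525 (1976 higher, 549 lower) without mitochondrial and the top 10 genes. Above a log2 fold change of 1 there were 795 calls over all genes, and 6447 by adjusted p alone. Depth limits Nox1, at 0 to 6 fragments per library, and the control level of Nox4.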
